A study of Mus musculus with 8 samples.

Results

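The enzymes of the pentose phosphate pathway and the main enzymes that make NADPH outside it are encoded by 10 genes of the series' table of 16994 genes: *G6pdx*, *Pgls*, *Pgd*, *Tkt*, *Taldo1*, *Rpia*, *Rpe*, *Me1*, *Idh1*, and *Idh2*. They were chosen by name, for their place in metabolism, and all 10 had a mean CPM (a count scaled to library size) of at least 1, as did 12999 genes in all. RNA was sequenced from the hearts of male mice with whole-body knockout of TIGAR (TKO) and from WT mice. The knockout is constitutive. The paper names a C57BL/6N line carrying the tm1a allele of *Tigar* as the source of its floxed mice. For the making of the knockout mice it refers to earlier work. Myocardial infarction (MI) was induced at 16 weeks of age by permanent ligation of the left anterior descending coronary artery, and the infarct, border, and remote zones were taken 4 weeks later. A left ventricle (LV) library of each genotype completed the set, and the labels do not say whether its mice were operated. Each of the 4 regions was sequenced once per genotype, 8 libraries in all, and infarct zone RNA was pooled from 3 mice per genotype. No difference between 2 libraries therefore has a replicate check.

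The pentose phosphate pathway branches from glycolysis at glucose-6-phosphate. Its oxidative branch makes NADPH and ribulose-5-phosphate, and its reversible non-oxidative branch exchanges sugar phosphates with glycolysis and yields ribose-5-phosphate for nucleotides. NADPH is spent on keeping glutathione and thioredoxin reduced, on lipid synthesis, and by the NADPH oxidases, and the heart also makes it in mitochondria through the isocitrate dehydrogenase IDH2. TIGAR dephosphorylates fructose bisphosphates and is known for directing glucose carbon toward the pentose phosphate pathway, which is why these genes bear on its loss.

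Total estimated counts per library lay between 27429240 and 33799249. Library sizes were scaled with edgeR's TMM method, whose factors were 0.866 to 0.956 in 6 libraries, and 1.26 and 1.54 for infarct tissue of TKO and WT, so these last libraries stood apart. *Tigar* had 1066 to 2215 counts in the WT libraries and 51 to 87 in the TKO libraries. Of 8 lists of cell type markers, the summed level of 10 cardiomyocyte genes was 51140 CPM in WT LV, 49450 in TKO LV, 10960 in the WT infarct zone, and 23300 in the TKO infarct zone, and lay between 36410 and 46380 in the border and remote zones. The 8 fibroblast genes summed to 874 and 981 CPM in the LV of WT and TKO and to 8277 and 6856 in the infarct zone, and the 8 macrophage and leukocyte genes to 363 and 317 CPM against 1581 and 1165. In such bulk tissue, fewer cells of a type and less RNA per cell cannot be told apart. The 5 atrial muscle genes summed to 189 and 299 CPM in the LV of WT and TKO, 3046 and 2093 in the infarct zone, 1726 and 494 in the border zone, and 2564 and 701 in the remote zone. Most of these counts were *Nppa*, which ventricle also makes under wall stress. The remaining genes of this list were highest in the remote zone of both genotypes. *Bmp10* had 6 counts in the LV of each genotype and 2134 and 305 in the remote zone of WT and TKO. *Myl7* had 152 in the LV of each genotype and 5227 and 2031 in the remote zone. The part of the atrial muscle genes in the results below was not tested.

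Levels differed widely among the genes. Per kilobase of the longest coding transcript, *Idh2* stood first with a median over the 8 libraries of 1110 CPM (range 280 to 1330). *Taldo1* followed at 54.5 (46.9 to 66.5), *Me1* at 40.2 (18.8 to 45.1), *Pgls* at 34.8 (25.3 to 38.0), and *Idh1* at 24.0 (17.2 to 29.4). *Taldo1* lay wholly above *Me1*, while *Me1*, *Pgls*, and *Idh1* overlapped their neighbours in this order. *Pgd* lay at 15.3 CPM per kilobase (14.3 to 23.5), overlapping *Idh1*. *Rpia*, at 7.68 (6.67 to 10.2), lay wholly below *Pgd*. *Rpe* at 4.52 (3.38 to 5.88), wholly below *Rpia*, *G6pdx* at 3.89 (2.92 to 7.63), and *Tkt* at 2.34 (1.74 to 3.81) came last, with overlap between neighbours. The transketolase gene thus had the lowest level of the pathway and the transaldolase gene the highest, at 145 to 508 and 2166 to 2701 counts per library.

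**Figure D1:**
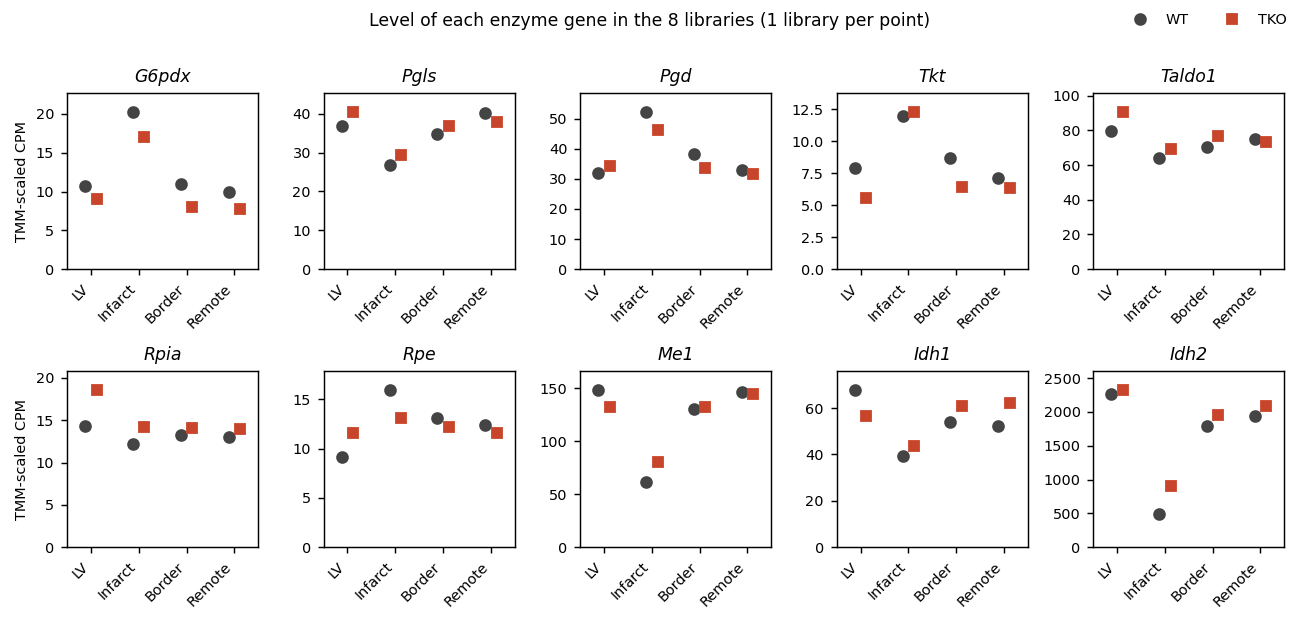
TMM-scaled CPM (y axis, linear from 0, own scale per gene) of each enzyme gene in the left ventricle and the infarct, border, and remote zones (x axis), with WT as circles and TKO as squares and 1 library per point. The infarct zone libraries stood above the other 6 for *G6pdx*, *Pgd*, *Tkt*, and, only just, *Rpe*, and below them for *Idh2* and *Me1*. They also stood below for *Pgls*, *Taldo1*, and *Idh1*, whose infarct zone over left ventricle ratios lay above 1 when libraries were scaled by total counts only.

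On GRCm38, the 3 oxidative genes lie apart: *G6pdx* on chromosome X from 74409483 to 74429194, *Pgls* on chromosome 8 from 71592176 to 71601092, and *Pgd* on chromosome 4 from 149149991 to 149166771. Exons of *G6pdx* overlap those of *Ikbkg* on the opposite strand, those of *Rpe* overlap *Kansl1l*, and those of *Me1* overlap an antisense gene. *Pgls* shares exonic bases with *Fam129c*, and *Tkt* with the microRNA gene *Mir3076*, each on the same strand, where strand would not tell them apart. The strandedness of the libraries is not given in the sources used here, so reads of the other overlaps could not be told apart either, and the values of these 5 genes carry that uncertainty.

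The promoter sequences of the 10 genes were read from RefSeq's GRCm38.p6 annotation, as the 250 bases before each annotated start. The core of the antioxidant response element, TGACNNNGC on either strand, the DNA element bound by NRF2, was searched for because NRF2 is known to regulate genes of this pathway. It occurred before 1 of the 10 genes, *G6pdx*, and before 11.5% of all 27025 genes. The match before *G6pdx* begins 57 bases before the start and reads on the opposite strand. It is shown in capitals with its flanks, chrX:74428919-74428947, minus strand, a stretch that GENCODE annotates as exonic.

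*G6pdx*: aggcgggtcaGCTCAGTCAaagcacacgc

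The GC box GGGCGG, on either strand, was added after seeing the data. It occurred before 10 of 10 genes and before 35.4% of all genes, and CCAAT before 5 of 10 and 37.5%. The box was therefore shared by genes that rose in the infarct zone and genes that fell. It is shown in capitals before *Pgd*, which rose there (chr4:149166772-149166955, minus strand), and before *Me1*, which fell (chr9:86695954-86696164, minus strand). These stretches hold no annotated exon, and a match describes letters in a window, not a bound site. The shares of all genes take in genes without counts here and were not matched for GC content, so enrichment was not tested.

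*Pgd*: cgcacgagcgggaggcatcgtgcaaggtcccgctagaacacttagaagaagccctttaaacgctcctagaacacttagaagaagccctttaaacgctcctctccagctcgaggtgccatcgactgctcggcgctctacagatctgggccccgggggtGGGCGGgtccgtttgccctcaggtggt

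*Me1*: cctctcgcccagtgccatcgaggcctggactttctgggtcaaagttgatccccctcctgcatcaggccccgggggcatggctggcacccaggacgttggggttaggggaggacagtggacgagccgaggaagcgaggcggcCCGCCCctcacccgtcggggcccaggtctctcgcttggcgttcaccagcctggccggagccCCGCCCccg

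The infarct zone differed most from the LV, and the genes moved in both directions there. Over both genotypes, 9 of the 10 genes passed the quasi-likelihood test of edgeR, adjusted over all genes by the Benjamini-Hochberg method, 4 higher and 5 lower, against 56.8% of all genes tested (28.2% higher and 28.6% lower). The share of the members was thus measured in a comparison in which most genes were called. In this test the 2 genotypes stand in for replicates of a zone, so its p-values bear on these libraries and not on mice. Scaling by total counts only raised the median log2 difference of all genes from 0.02 to 0.71 and turned the direction of 3 of the 5 lower genes, *Pgls*, *Taldo1*, and *Idh1*.

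Within the oxidative branch, *G6pdx* and *Pgd* rose and *Pgls* fell. *G6pdx* encodes glucose-6-phosphate dehydrogenase, the rate-limiting entry to the pathway. Its level was 10.7 CPM in WT LV, 9.04 in TKO LV, 20.2 and 17.0 in the infarct zone of WT and TKO, 11.0 and 8.06 in the border zone, and 9.99 and 7.74 in the remote zone. Both infarct zone libraries lay above the other 6, which did not overlap them. The infarct zone was 1.90-fold the LV in WT (95% interval from counting error, 1.66 to 2.18) and 1.88-fold in TKO (1.61 to 2.19), and the log2 difference over both was 0.92 ± 0.11 (SE, edgeR adjusted p = 0.00144).

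*Pgd* encodes 6-phosphogluconate dehydrogenase, which makes the second NADPH of the branch. It had 31.8 CPM in WT LV and 34.2 in TKO LV, 52.2 and 46.2 in the infarct zone, 38.4 and 33.5 in the border zone, and 33.0 and 31.8 in the remote zone. The infarct zone again stood above every other library, 1.64-fold the LV in WT (1.51 to 1.77) and 1.35-fold in TKO (1.24 to 1.47). The log2 difference was 0.57 ± 0.11 (SE, edgeR adjusted p = 0.00515). *Pgls* encodes 6-phosphogluconolactonase, the step between these dehydrogenases. It lay at 26.9 and 29.3 CPM in the infarct zone of WT and TKO and between 34.7 and 40.4 CPM elsewhere, a log2 difference of -0.46 ± 0.10 (SE, edgeR adjusted p = 0.00837) that was 0.22 (adjusted p = 0.143) under total counts. The log2 difference of the middle step thus lay below those of the steps before and after it under both scalings.

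In the non-oxidative branch, *Tkt* and *Rpe* rose, *Taldo1* fell under TMM scaling but not under total counts, and *Rpia* did not pass the test. *Tkt* encodes transketolase, which moves 2-carbon units between sugar phosphates. It had 7.92 and 5.60 CPM in the LV of WT and TKO, 12.01 and 12.28 in the infarct zone, 8.73 and 6.41 in the border zone, and 7.16 and 6.34 in the remote zone. The infarct zone ratio over the LV was 1.52 in WT (1.29 to 1.79) against 2.19 in TKO (1.81 to 2.66), and the log2 difference was 0.87 ± 0.18 (SE, edgeR adjusted p = 0.00662). No infarct zone value overlapped the others.

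*Rpe* encodes ribulose-phosphate 3-epimerase, which forms xylulose-5-phosphate. Its levels were 9.16 and 11.6 CPM in the LV of WT and TKO, 15.96 and 13.15 in the infarct zone, 13.14 and 12.2 in the border zone, and 12.4 and 11.6 in the remote zone. The TKO infarct zone and the WT border zone were thus nearly tied. The infarct zone was 1.74-fold the LV in WT (1.505 to 2.02) and 1.14-fold in TKO (0.980 to 1.32). Under TMM scaling the TKO libraries alone thus held no difference beyond counting error, while under total counts their ratio was 1.65. The log2 difference was 0.49 ± 0.16 (SE, edgeR adjusted p = 0.0408). The call did not hold without the border libraries (adjusted p = 0.0716) or the remote libraries (0.0722), nor with DESeq2 (0.0578) or without a filter on low counts (0.0697).

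*Taldo1*, for transaldolase, had 63.9 and 69.4 CPM in the infarct zone of WT and TKO and 70.3 to 90.5 CPM elsewhere, with a log2 difference of -0.35 ± 0.10 (SE, edgeR adjusted p = 0.0261) that was 0.33 (adjusted p = 0.0471) under total counts. Without the border libraries its adjusted p was 0.0707. *Rpia*, for ribose-5-phosphate isomerase, lay between 12.2 and 18.6 CPM and had a log2 difference of -0.32 ± 0.11 (SE, edgeR adjusted p = 0.0528). Its adjusted p was 0.0467 with DESeq2 size factors in the edgeR fit and 0.0409 without a filter on low counts, and under total counts its infarct zone ratios lay above 1 in both genotypes.

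The 3 NADPH-producing enzymes outside the pathway fell in the infarct zone, although *Idh1* lay slightly above the LV under total counts. *Idh2* encodes the NADP-dependent isocitrate dehydrogenase of mitochondria and was by far the most abundant of the genes, at 20670 to 62903 counts per library. Its level was 2261 CPM in WT LV, 2323 in TKO LV, 489 and 903 in the infarct zone of WT and TKO, 1791 and 1950 in the border zone, and 1932 and 2089 in the remote zone. The infarct zone libraries lay far below the other 6. Its ratio over the LV was 0.216 in WT (0.213 to 0.220) and 0.389 in TKO (0.383 to 0.394), with a log2 difference of -1.76 ± 0.27 (SE, edgeR adjusted p = 0.00231). The cardiomyocyte marker sum moved with it, at 0.214 of the LV in WT and 0.471 in TKO, and its part in the fall of *Idh2* was not tested.

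*Me1* encodes cytosolic malic enzyme, which makes NADPH from malate and is prominent in adipocytes and liver. It had 148 and 132 CPM in the LV of WT and TKO, 61.8 and 80.9 in the infarct zone, 130 and 133 in the border zone, and 147 and 145 in the remote zone. The infarct zone libraries stood below all others, at 0.416 of the LV in WT (0.396 to 0.437) and 0.612 in TKO (0.583 to 0.644). The log2 difference was -0.98 ± 0.15 (SE, edgeR adjusted p = 0.00266), and under total counts it was -0.30 (adjusted p = 0.0585) and not called. The 6 adipocyte genes summed to 728 and 486 CPM in the LV of WT and TKO and to 266 and 341 in the infarct zone. Most of these counts were *Fabp4*, a fatty acid carrier that endothelial cells make too. *Adipoq* (adiponectin) had 370 and 6 counts in the LV of WT and TKO and 109 and 56 in the infarct zone, *Cfd* had 1144 and 17 against 398 and 170, and *Plin1* and *Lep* were at 0 in at least 1 library. The defining adipocyte genes were thus near 0 in TKO LV but not in WT LV, and their part in the *Me1* values was not tested.

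*Idh1* encodes the NADP-dependent isocitrate dehydrogenase of the cytosol and peroxisomes. Its levels were 67.8 and 56.5 CPM in the LV of WT and TKO, 39.5 and 43.8 in the infarct zone, 54.1 and 60.8 in the border zone, and 52.4 and 62.1 in the remote zone. The infarct zone was 0.583 of the LV in WT (0.545 to 0.623) and 0.776 in TKO (0.722 to 0.834), with a log2 difference of -0.58 ± 0.14 (SE, edgeR adjusted p = 0.0134) that was 0.11 (adjusted p = 0.527) under total counts. The mitochondrial and cytosolic forms thus differed in how far they fell, and counts of *Idh1* per 1000 counts of *Idh2*, which need no library scaling, were 80.8 and 48.6 in the infarct zone of WT and TKO and 24.3 to 31.1 elsewhere.

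**Figure D2:**
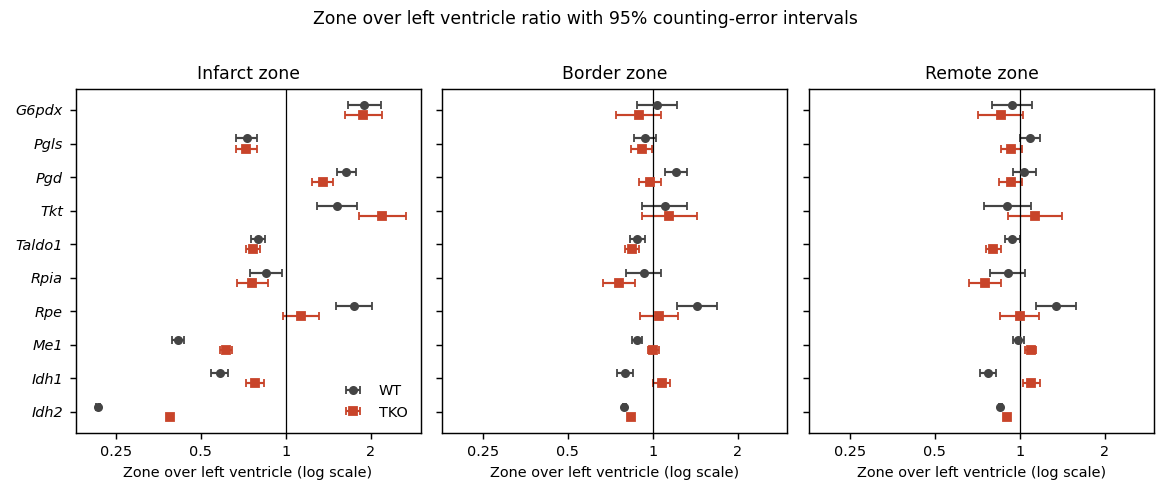
Ratio of each zone over the left ventricle of the same genotype (x axis, log scale) for each gene, with WT as circles and TKO as squares under TMM scaling and bars for the 95% interval from counting error. Infarct zone ratios ran from 0.216 (*Idh2*, WT) to 2.19 (*Tkt*, TKO); those of *Pgls*, *Taldo1*, *Rpia*, and *Idh1* lay below 1 here but above 1 under total counts, and border and remote zone ratios stayed within 1.5-fold.

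Counted by size within each genotype, 7 of the 10 genes were past 1.5-fold between the infarct zone and the LV in WT (54.3% of all genes) and 4 in TKO (46.4%). In WT these were *G6pdx*, *Pgd*, *Tkt*, and *Rpe*, higher (28.5% of all genes), and *Me1*, *Idh1*, and *Idh2*, lower (25.8%). In TKO they were *G6pdx* and *Tkt*, higher (26.2%), and *Me1* and *Idh2*, lower (20.2%). Under total counts the genes past 1.5-fold were *G6pdx*, *Pgd*, *Tkt*, *Rpe*, and *Rpia*, higher, and *Idh2*, lower, in WT, and the same without *Rpia* in TKO. The share of all genes past 1.5-fold was not computed under that scaling. With backgrounds of the size given for TMM scaling, the counts are a description. Whether the genotypes differ in them was tested only through the region departures given below. In simulated data edgeR recovered 4% of 2-fold and 66% of 4-fold infarct zone departures, so that test can miss differences of this size. The order across all libraries said the same for single genes. Both infarct zone libraries lay above the other 6 for 4 genes (32.9% of all genes), though only just for *Rpe*. They lay below the other 6 for 5 genes (31.1%), *Pgls*, *Taldo1*, *Me1*, *Idh1*, and *Idh2*. Of these, *Pgls*, *Taldo1*, and *Idh1* had infarct zone ratios above 1 under total counts.

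Against the remote zone, 7 of 10 genes passed the test (49.5% of all genes). *G6pdx* (log2 difference 1.08 ± 0.11), *Pgd* (0.60 ± 0.11), and *Tkt* (0.85 ± 0.17) rose. *Me1* (-1.04 ± 0.15) and *Idh2* (-1.57 ± 0.26) fell, and *Pgls* (-0.47 ± 0.10) and *Idh1* (-0.46 ± 0.14) fell under TMM scaling but lay at 0.16 and 0.18 under total counts. *Rpe* did not pass here, with 0.28 ± 0.16 (SE, edgeR adjusted p = 0.186), but did under total counts (0.93, adjusted p = 0.00561). So did *Taldo1* (0.48, edgeR adjusted p = 0.011) and *Rpia* (0.60, edgeR adjusted p = 0.0105), which lay at -0.16 and -0.04 under TMM scaling. Under total counts 6 members were thus called higher and 2 lower, beside 7705 and 918 of all 12999 genes tested. Without the border libraries *Idh1* lost its call (adjusted p = 0.0671).

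**Figure D3:**
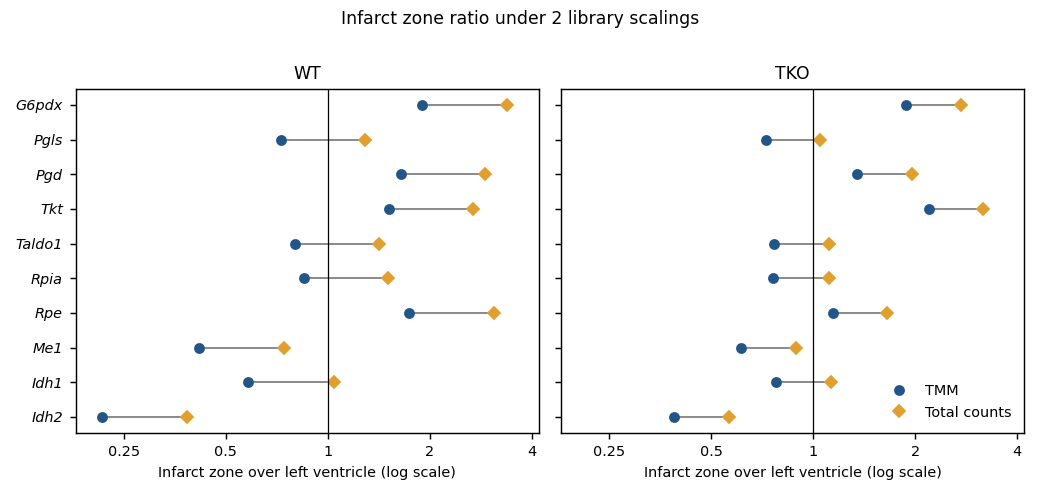
Infarct zone over left ventricle ratio (x axis, log scale) of each gene in WT and TKO with libraries scaled by TMM (circles) or by total counts only (diamonds), joined by a line. *G6pdx*, *Pgd*, *Tkt*, and *Rpe* stay above 1 and *Me1* and *Idh2* below 1 under both scalings, while *Pgls*, *Taldo1*, *Rpia*, and *Idh1* cross 1.

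Ratios between 2 genes within a library do not depend on that scaling. *G6pdx* had 134 and 99.8 counts per 1000 counts of *Taldo1* in the LV of WT and TKO and 317 and 245 in the infarct zone, with 105 to 157 in the border and remote zones. *Pgd* per 1000 *Taldo1* counts went from 399 and 378 to 817 and 665. Against *Idh2*, *Pgd* went from 14.1 and 14.7 counts per 1000 in the LV to 107 and 51.2 in the infarct zone. All 3 ratios were higher in both infarct zone libraries than in any other. This follows from the orders already given, as each pair sets a gene that was highest there over a gene that was lowest. It is thus no separate support, and the share of other gene pairs with such ratios was not computed.

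In the border and remote zones, edgeR called few genes of any kind against the LV, so the lack of a call says little about the members. None of the 10 genes passed the edgeR test in the border zone (0.715% of all genes were called) or in the remote zone (0.0%), none did by DESeq2, and none had an unadjusted edgeR p under 0.05, as had 17.9% of all genes in the border zone and 10.6% in the other. None was past 1.5-fold in the border zone of WT (18.8% of all genes) or TKO (15.3%) or in the remote zone of WT (14.2%) or TKO (12.6%). The ratio farthest from 1 was that of *Rpe* in the WT border zone, 1.43 (1.22 to 1.69), with 1.05 in TKO (0.899 to 1.23), and under total counts *Rpe* had the only WT border zone ratio past 1.5-fold. *Idh1* was 0.798 of the LV in the WT border zone (0.747 to 0.853) and 1.07 in TKO (1.003 to 1.15).

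Between genotypes, across the 4 regions as blocks, none of the 10 genes passed the edgeR test, nor the DESeq2 test, and 0.138% of all genes were called by edgeR. Here regions stand in for replicates, so the test bears on regions and not on mice. The sources used here do not say whether the regions of a genotype were cut from shared hearts, and regions that share hearts are not independent. The gene nearest to the threshold was *G6pdx*, with a log2 difference of -0.33 ± 0.08 (SE, edgeR adjusted p = 0.192). It was the only one of the 10 with an unadjusted p under 0.05, as had 16.2% of all genes. Its TKO over WT ratio was 0.848 in the LV (0.711 to 1.01) and 0.839 in the infarct zone (0.755 to 0.932). The border zone gave 0.730 (0.616 to 0.864), and the remote zone 0.775 (0.650 to 0.922). It was lower in TKO in 4 of 4 regions, as were 13.5% of all genes. No other member was so under TMM scaling, but *Tkt* was under total counts. In the LV the difference in *G6pdx* was not beyond counting error.

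Past 1.5-fold between TKO and WT was 1 gene, *Idh2* in the infarct zone (16.3% of all genes were past it there in either direction and 10.1% higher). No member was past it in the LV (14.4%), the border zone (11.9%), or the remote zone (9.45%). *Idh2* was 1.85-fold higher in the TKO infarct zone (1.82 to 1.88), against ratios of 1.03, 1.09, and 1.08 in the LV, border, and remote zones. How far the genotype difference in this zone departed from that in the other 3 regions was tested too, and for *Idh2* the departure was 0.79 ± 0.15 on the log2 scale, not called by edgeR (adjusted p = 0.411). By this test 0.00769% of all genes were called, and *Idh2* and *Me1* had an unadjusted p under 0.05, as had 7.83% of all genes. DESeq2 called it, with 0.80 (adjusted p = 0.00194), where 3 of the 10 genes received an adjusted p. Over all genes it called 288 of the 2162 that received one, all of them higher. The cardiomyocyte markers were higher in the same library pair, 10 of 10, with a TKO over WT ratio of their sum of 2.13, while the fibroblast sum stood at 0.828 (0 of 8 higher) and the macrophage and leukocyte sum at 0.736 (0 of 8 higher). Counts of *Idh2* per 1000 counts of *Tnnt2*, a cardiomyocyte troponin, were 333 and 375 in the infarct zone of WT and TKO. Per 1000 counts of *Myh6*, a cardiomyocyte myosin, they were 456 and 247, the other way round, and per 1000 counts of *Idh3b*, a subunit of the NAD-dependent isocitrate dehydrogenase of mitochondria, 2370 and 2330. *Tnnt2* and *Myh6* had the lowest and highest TKO over WT ratios of the 10 cardiomyocyte markers in this zone, 1.64 and 3.41. The median of the 10 was 1.99, and besides *Tnnt2* only *Ttn* (1.79) lay below the 1.85 of *Idh2*. The ratio of *Idh2* to a cardiomyocyte gene was thus higher in TKO against *Tnnt2* and *Ttn* and lower against the rest of the list.

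**Figure D4:**
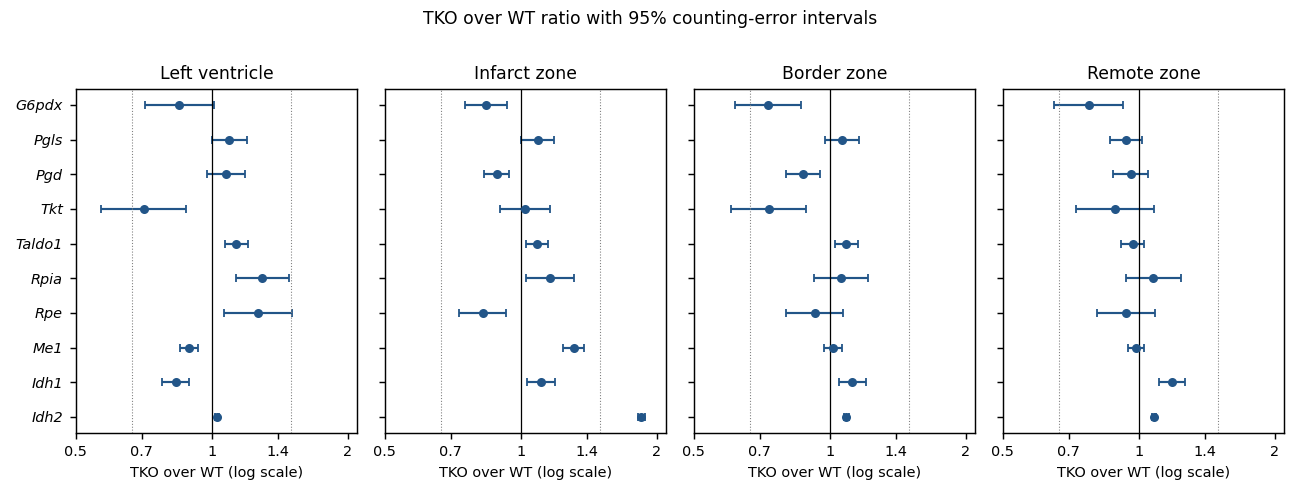
TKO over WT ratio (x axis, log scale) of each gene in each region under TMM scaling, with bars for the 95% interval from counting error, a solid line at 1, and dotted lines at 1.5-fold in either direction. *Idh2* in the infarct zone, at 1.85, is the only ratio past 1.5-fold; the infarct zone ratios of *Pgls*, *Tkt*, *Taldo1*, *Rpia*, and *Idh1* lie above 1 here and below 1 under total counts.

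*Tkt* was 0.707 of WT in the TKO LV (0.569 to 0.877) and 0.734 in the TKO border zone (0.606 to 0.887), beside ratios of 1.02 for the infarct zone (0.898 to 1.16), which was 0.834 under total counts, and 0.886 for the remote zone (0.725 to 1.08), and its log2 difference across regions was -0.27 ± 0.12 (SE, edgeR adjusted p = 0.342). *Pgd* had ratios of 0.886 for the infarct zone (0.830 to 0.944) and 0.873 for the border zone (0.801 to 0.9504), with 1.08 for the LV and 0.961 for the remote zone. These genes carry lower counts than *Idh2*, and their intervals are wider.

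*Rpia* was above WT in every TKO region, as were 13.2% of all genes and *Idh2*, but its infarct zone ratio, 1.16 under TMM scaling, was 0.946 under total counts. Its largest ratio, 1.295, was in the LV (1.13 to 1.48), and its log2 difference across regions was 0.19 ± 0.08 (SE, edgeR adjusted p = 0.309). *Rpe* stood at 1.26 in the LV (1.07 to 1.502) and 0.824 in the infarct zone (0.731 to 0.928). *Me1* stood at 0.890 in the LV (0.850 to 0.931) and 1.31 in the infarct zone (1.24 to 1.38), and at 1.02 and 0.986 in the border and remote zones. *Idh1* stood at 0.833 in the LV (0.778 to 0.893) and above 1 in the 3 zones, with an infarct zone ratio of 1.11 that was 0.905 under total counts.

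*Pgls* and *Taldo1* held ratios between 0.939 and 1.13 in all regions, and in the infarct zone theirs of 1.09 were 0.889 and 0.887 under total counts. No departure of the LV from the other regions passed the edgeR test for any of the 10 genes (0.646% of all genes were called), and 2 had an unadjusted p under 0.05 (16.8% of all genes), *Idh1* (-0.45 ± 0.13, adjusted p = 0.193) and *Rpe* (0.50 ± 0.17, adjusted p = 0.237). DESeq2 called none of them there.

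Other genes of the pathway and of NADPH metabolism were taken as a list of 25, of which 24 were in the table and 23 had enough counts to be tested. None passed the genotype test. In the infarct zone against the LV, 6 rose, 8 fell, and 9 did not pass, near the shares of all genes (28.2% higher and 28.6% lower), with a median log2 difference of -0.04 against 0.02 for all genes, and 2 of the 8, *Prps1* and *Glud1*, had higher levels than the LV under total counts. *H6pd*, which carries out the first oxidative steps in the endoplasmic reticulum, rose as *G6pdx* did, with 45.9 and 29.5 CPM in the LV of WT and TKO and 79.4 and 63.3 in the infarct zone (log2 difference 0.93 ± 0.18, edgeR adjusted p = 0.00533). The transketolase relative *Tktl1* had at most 10 counts in any library, and *Tktl2* was not analysed here. *Rbks*, the ribokinase gene that feeds ribose into the pathway, lay between 1.77 and 2.79 CPM and did not pass in any zone.

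Among the relatives of the NADPH producers, *Me3*, for mitochondrial malic enzyme, fell from 96.6 and 91.4 CPM in the LV of WT and TKO to 24.2 and 40.7 in the infarct zone (log2 difference -1.57 ± 0.20, edgeR adjusted p = 0.00157). *Me2*, the mitochondrial NAD-dependent form, did not pass (0.11 ± 0.20). *Idh3b* (-1.65 ± 0.24) and *Idh3g* (-1.47 ± 0.22), subunits of the NAD-dependent isocitrate dehydrogenase, fell, and *Nnt*, the transhydrogenase that makes NADPH at the inner mitochondrial membrane, fell by 2.09 ± 0.40 on the log2 scale (edgeR adjusted p = 0.0054). Other mitochondrial genes of the list, named after their values were seen, went in different directions. *Mthfd2* (1.01 ± 0.24) and *Mthfd1l* (2.17 ± 0.26), of folate metabolism, rose, and *Aldh1l2* (-0.17 ± 0.27) and *Idh3a* did not pass. *Nadk2* (-1.45 ± 0.18) fell. *Glud1* (-0.38 ± 0.11) fell under TMM scaling but had higher levels than the LV under total counts.

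The largest genotype differences of that list, none of them called, were those of *Idh3a* (0.58 ± 0.52), *Nnt* (0.56 ± 0.28), and *Mthfd1l* (-0.52 ± 0.18). *Idh3a*, the catalytic subunit, had 305 counts in the WT remote zone and 2095 in that of TKO, against 807 to 1815 in the WT libraries of the other regions. *Nnt* had 52.1 and 154 CPM in the infarct zone of WT and TKO and 215 to 416 CPM elsewhere. These single libraries have no replicate to set them against.

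The genes whose patterns over the 8 libraries were most like those of the members were found by the root-mean-square distance of centred log2 CPM, 2 per member. For *Idh2* they were *Hsdl2* and *Acat1*, each at a distance of 0.057 where the standard deviation of *Idh2* itself was 0.747. *G6pdx* was nearest to *Tram2* (0.0731) and *Ap3s1* (0.0824), *Pgd* to *Lmna* (0.034) and *Arhgap1* (0.0418), and *Tkt* to *Ebf1* and *Nfxl1*. *Me1* was nearest to *Ifit1bl1* and *Inpp5j*, *Idh1* to *Vps8* and *Mef2d*, *Pgls* to *Csnk1g2* and *Rab11a*, *Taldo1* to *Vps72* and *Ubxn1*, *Rpia* to *Dad1* and *Pbxip1*, and *Rpe* to *Actr3* and *Cenpc1*. No member had another member among its nearest. All these distances are over the same 8 libraries and say nothing of shared function.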

How the data were processed

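RNA from 8 samples, 1 per genotype and region, was sequenced. The authors used Trim Galore 0.6.5 for trimming and Kallisto 0.46 for quantification on the mm10 transcriptome, with tximport for sums per gene, per the paper and the submitters' processing notes. The deposited table holds estimated counts per gene as whole numbers, not normalized. Here they were scaled with TMM and fitted with edgeR 4.0.16 in R 4.3.3 (region and genotype as terms, a mean CPM minimum of 1, Benjamini-Hochberg threshold 0.05), with DESeq2 1.42.0 as an alternative. Ratios of 2 libraries carry exact (Clopper-Pearson) 95% intervals that cover counting error only. Fold counts used a prior count of 2. Of the table's identifiers, 16867 matched GENCODE M21. In simulated data edgeR recovered 83% of 2-fold and 94% of 4-fold genotype differences, and 64% and 88% of infarct zone differences from the LV. It recovered 4% and 66% of infarct zone departures, so the lack of a call for a departure decides little. In these simulations 200 genes were changed and the rest kept the same level over all regions. In the data, edgeR called 56.8% of genes in the infarct zone against the LV. Simulated dispersions came from these libraries, so differences between mice were not simulated and recovery in the data may differ. All 10 members were named, with their reaction-sharing genes and the list genes with the largest genotype differences. Members and lists were chosen with earlier results of these data known. Python 3.11.15, pandas 2.3.3, scipy 1.17.1, and matplotlib 3.10.9 were also used. Alternatives were other scalings, filters, folds, DESeq2, and leaving out regions. Some genes of the lists are not reported here.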

Additional observations from a re-analysis of the deposited data

Results flagged for a closer look

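For 3 genes the TKO over WT ratio lay on opposite sides of 1 in different regions, beyond counting error in each under TMM scaling. The share of all genes with such ratios was not computed, so the count is a description. *Rpe* was at 1.265 in the left ventricle and 0.824 in the infarct zone. *Me1* was at 1.309 in infarct tissue and 0.8898 in the left ventricle. *Idh1* was at 1.11, 1.123, and 1.186 in infarct, border, and remote tissue and at 0.8332 in the left ventricle. Under total counts the infarct zone ratios were 0.672 for *Rpe*, 1.07 for *Me1*, and 0.905 for *Idh1*. With 1 library per genotype and region, these differences between 2 regions were not tested. A departure of 1 region from the others was hard to detect, as edgeR recovered 4% of 2-fold infarct zone departures in simulated data. Departures of the left ventricle were not simulated. The departure of the left ventricle from the other 3 regions, tested by edgeR, was not called for *Rpe* (adjusted p = 0.237), *Me1* (0.53), or *Idh1* (0.193), nor was that of the infarct zone for *Me1* (0.582) or *Rpe* (0.934).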

How the results depend on the processing

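Directions turned under total counts only. For infarct tissue, TKO over WT became 0.889 for *Pgls*, 0.887 for *Taldo1*, 0.946 for *Rpia*, and 0.905 for *Idh1*. The infarct zone over left ventricle ratios became 1.29, 1.42, 1.51, and 1.04 in WT and 1.05, 1.11, 1.11, and 1.13 in TKO, in the same order. The log2 differences from the left ventricle became 0.223 for *Pgls*, 0.331 for *Taldo1*, and 0.107 for *Idh1*, and those from the remote zone 0.164, 0.482, and 0.176, with 0.598 for *Rpia*. Total counts moved the median log2 difference of all genes to 0.705 in the infarct zone, with 7869 genes called higher and 1084 lower against 3670 and 3715, and members 5 higher and 1 lower; that of the genotype moved to -0.107. At a 2-fold threshold the members past it fell to 0 between genotypes in the infarct zone. They fell to 2 in each genotype between the infarct zone and the left ventricle. Under total counts 1 member was past 1.5-fold in the WT border zone. For these settings the share of all genes past the threshold was not computed. DESeq2 called 1 member's departure in the infarct zone where edgeR called 0; over all genes it called 288 of 2162 against edgeR's 1 of 12999. In the infarct zone against the left ventricle, 7 members were called without the border libraries and 8 without the remote libraries. Over all 12999 genes, 6475 and 6635 were called. Against the remote zone, 7 members were called without the left ventricle libraries and 6 without the border libraries, beside 7446 and 5448 of all genes. In every other comparison that leaving out a region allowed, 0 members and at most 83 genes were called.

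Across all genes, DESeq2 called 342 genes between genotypes, 576 and 162 in border and remote tissue against the left ventricle, and 280 departures of the left ventricle, against edgeR's 18, 93, 0, and 84. Of 1033 values recomputed under an alternative, 965 were counted as the same, which does not mean unchanged. A ratio was so counted within the counting-error interval of its main value, even across 1 where that interval held 1. A count of members was so counted within 1.5-fold of its main value. The members called in the infarct zone against the left ventricle, 9 under TMM and 6 under total counts, were among these. No paired analysis was possible because the labels carry no replicate numbers to pair libraries by; the regions are already blocks in the genotype fit. With 1 library per group, counting error is the only error measured for a ratio, and it limits *Tkt*, *G6pdx*, *Rpe*, and *Rpia* most. The fits were run with all libraries on 1 dispersion estimate per gene, so differences between mice remain unmeasured.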

Other observations

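The genes that use NADPH, a list of 19 of which 18 were tested, included 8 called higher and 4 called lower in the infarct zone against the left ventricle, with 6 not called, beside 28.2% higher and 28.6% lower among all genes, and a median log2 difference of 0.20 beside 0.02 for all genes. Those that rose included NADPH oxidase genes: *Cybb*, the catalytic subunit of phagocytes, by 1.66 ± 0.13, *Cyba*, *Ncf1*, and *Ncf4*, its partners, and *Nox4*, by 5.10 ± 0.35 (SE, edgeR adjusted p = 0.000339). *Nox4* had 2.01 and 1.58 CPM in the left ventricle of WT and TKO, 72.3 and 48.6 in the infarct zone, 18.5 and 5.46 in the border zone, and 7.46 and 3.72 in the remote zone. It was the only one of the 18 called in the border zone (2.60 ± 0.35, edgeR adjusted p = 0.0425), where 0.715% of all genes were called. *Fasn*, for fatty acid synthase, also rose. *Txnrd2*, the mitochondrial thioredoxin reductase, and *Akr1b3*, aldose reductase, fell, while *Txnrd1* and *Cbr1* fell under TMM scaling. Under total counts *Txnrd1* was 1.09 and 1.02 of the left ventricle in WT and TKO, and *Cbr1* was 0.986 and 1.04. *Gsr*, for glutathione reductase, had a log2 difference of -0.04 ± 0.17. None of the 18 passed the genotype test. The fibroblast and macrophage marker sums were also higher in the infarct zone, by 9.47-fold and 4.36-fold in WT and 6.99-fold and 3.67-fold in TKO, and their part in these values was not tested.

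Of 9 NRF2 target and pathway genes outside these lists, *Gclc*, *Slc7a11*, and *Nfe2l2* rose in the infarct zone, and 4 did not pass. *Nqo1* fell, and *Keap1* fell under TMM scaling. Under total counts *Keap1* was 1.09 and 0.924 of the left ventricle in WT and TKO. The 3 higher and 2 lower of the 9 genes stand beside 28.2% and 28.6% of all genes. None passed the genotype test, and their median genotype log2 difference was -0.15.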
